A study of Mus musculus with 12 samples.

Results

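Growth factor genes were examined in sdCAMs, that is, subdural CNS-associated macrophages, which live in the leptomeninges and around the vessels of the brain. Of the 56735 gene names of the count table, 10 were taken by name, namely Igf1, Vegfa, Vegfb, Pdgfa, Pdgfb, Pdgfc, Hbegf, Hgf, Bdnf and Osm. All 10 had a row in the table. Bulk RNA-seq libraries had been made from 12 sorted samples, in 3 groups of 4. All mice carried the genotype Mrc1CreERT2/CreERT2:R26tdT/tdT, that is, a tamoxifen-inducible Cre at both alleles of Mrc1, the gene for CD206, and a Cre-dependent tdTomato reporter (tdT) at Rosa26. All received tamoxifen 4 weeks before treatment. Treatment was vehicle, or BLZ945 at 200 mg per kg, daily for 7 days, and cells were sorted 8 weeks after its end from adult brains freed of the choroid plexuses. BLZ945 inhibits the receptor for colony-stimulating factor 1, on which macrophages of the brain and its borders depend for survival. Sorting gave 3 populations. From animals given vehicle, the tdT+ cells were kept, and from animals given BLZ945, both the tdT+ and the tdT- cells. The tdT label marks cells in which Cre was active at the time of tamoxifen and their descendants. A tdT- cell can therefore be one that arrived later, one that the recombination missed, or a cell of another type that came through the sort. Libraries carried the mouse labels F1, F2, M1 and M2, and the tdT+ and tdT- libraries of BLZ945 mice with the same label came from the same animal.

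Growth factors are secreted or shed proteins that bind receptors on nearby cells and drive their growth, survival or repair. Tissue macrophages are a known source of several of them. Igf1 (insulin-like growth factor 1) acts through the receptor Igf1r, while binding proteins of the Igfbp family hold it in reserve. The vascular factors Vegfa and Vegfb act on endothelial receptors, the platelet-derived factors Pdgfa, Pdgfb and Pdgfc on mesenchymal and glial cells, and Hbegf, once cut from the membrane, on the receptors of the epidermal growth factor family. Hgf (hepatocyte growth factor) signals through Met, Bdnf (brain-derived neurotrophic factor) through Ntrk2, and Osm (oncostatin M), a cytokine related to interleukin 6, through Il6st paired with Osmr or Lifr.

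The members lie on 9 chromosomes. In the coordinates of the count table (GRCm39), Igf1 spans chr10:87694127-87772904 on the plus strand and Vegfb chr19:6959841-6965019 on the minus strand. Counts were taken over all exons of a gene without regard to strand. Exons of Pdgfa share 813 bases, 26.1% of its exon length, with 6330403L08Rik on the opposite strand, so the reads of both cannot be told apart there. That gene was assigned 262 counts over the 12 libraries, against 3573 for Pdgfa. The 250 bases before a RefSeq start of Igf1 and of Vegfb are given for context. Igf1 was the member that differed between groups and Vegfb the member with the highest level per length. The builds were not joined, so these starts were not matched to the starts of the counted gene models, and a stretch can lie inside the counted span. They are RefSeq sequences of GRCm38.p6, read 5′ to 3′ on the strand of the gene, with each CG dinucleotide in capitals. The Igf1 stretch lies at chr10:87860861-87861110 on the plus strand and the Vegfb stretch at chr19:6987652-6987901 on the minus strand of that build.
Igf1: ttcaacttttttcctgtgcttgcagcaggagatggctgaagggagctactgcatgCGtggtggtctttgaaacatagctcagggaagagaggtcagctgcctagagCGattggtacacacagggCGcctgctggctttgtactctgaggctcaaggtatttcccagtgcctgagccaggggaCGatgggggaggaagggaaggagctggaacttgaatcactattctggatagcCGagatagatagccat
Vegfb: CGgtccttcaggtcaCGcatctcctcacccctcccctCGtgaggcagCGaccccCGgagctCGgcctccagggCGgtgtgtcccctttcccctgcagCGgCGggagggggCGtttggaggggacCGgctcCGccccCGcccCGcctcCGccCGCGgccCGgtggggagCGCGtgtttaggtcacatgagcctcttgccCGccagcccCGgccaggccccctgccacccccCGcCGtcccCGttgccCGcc
The Igf1 stretch held 5 CG dinucleotides, and 44.4% of the 32851 stretches of this length in the reference table held fewer. The Vegfb stretch held 26, and 90.4% held fewer. A CCAAT motif (CCAAT on either strand) was present once in the Igf1 stretch and absent from that of Vegfb, and 33.9% of all stretches held one. These are descriptions of the letters, and no measurement here bears on the use of either promoter.

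Libraries held between 19969308 and 23395058 counts, and between 14230 and 15866 genes with a count. The share of counts from mitochondrial genes was 0.702% to 1.13% in vehicle tdT+, 0.515% to 0.589% in BLZ945 tdT+ and 0.324% to 0.631% in tdT- libraries. Macrophage genes were high in every library. The summed normalised count of 10 macrophage markers was 448910 to 491700 in vehicle tdT+, 490790 to 526130 in BLZ945 tdT+ and 330210 to 448190 in tdT- libraries. Mrc1 itself was lower in tdT- cells (2232 to 3882) than in BLZ945 tdT+ cells (8004 to 12341). The 10 macrophage markers did not all move this way. Between these groups, 6 were lower and 2 higher at an adjusted p of at most 0.05 (DESeq2). Aif1 and Cx3cr1 were higher in tdT- cells in 4 of 4 mice. Markers of microglia, the macrophages of the brain tissue, moved with the groups as well. All 5 markers on that list were higher in tdT- than in both tdT+ groups, and their summed level was 44600 to 71225, 73903 to 98744 and 190750 to 405050 in the order above. The tdT- library of mouse F2 stood apart. Its 5 neutrophil markers summed to 422700, against 3.16 to 21.0 in the other 3 tdT- libraries, and its monocyte markers summed to 50749, against 3076 to 6650. Of the 5 endothelial markers, 4 were at 0 in all tdT- libraries. Results that rest on F2 are therefore given with and without it. In bulk RNA, fewer cells of a type and less RNA per cell cannot be told apart.

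Levels were first compared between the members. On the TPM scale, on which counts are divided by exon length and scaled to a fixed total per library, Vegfb was the most abundant member in all 3 groups and Igf1 came second. In vehicle tdT+ cells, Vegfb stood at 117 ± 9.69 TPM and Igf1 at 91.4 ± 11.9 TPM (SD, n = 4). The 4 Vegfb levels (104 to 125 TPM) did not overlap those of Igf1 (75.2 to 101 TPM). In BLZ945 tdT+ cells the ranges of Vegfb (66.0 to 105 TPM) and Igf1 (57.4 to 87.3 TPM) overlapped, but Vegfb was the higher within each library. In tdT- cells they were apart again, at 57.9 to 90.6 TPM for Vegfb and 33.7 to 47.5 TPM for Igf1. Without division by length, the order of both was turned, and Igf1 had the highest CPM, counts scaled to the library total, in each group (340 against 70.7 CPM for Vegfb in vehicle cells). Pdgfb, Osm, Pdgfa and Pdgfc followed in vehicle cells, at mean levels of 17.3, 9.91, 9.87 and 8.73 TPM. The ranges of each neighbouring pair among these overlapped, so their order was not resolved. Hgf (2.59 ± 0.948 TPM) and Hbegf (2.04 ± 1.72 TPM) were lower, with overlapping ranges. Vegfa and Bdnf averaged 0.746 and 0.11 TPM, and both were at 0 in most libraries. Igf1 made up 29.4% to 43.6% of the TPM summed over the 10 members in vehicle tdT+ libraries, 28.1% to 39.6% in BLZ945 tdT+ libraries and 22.4% to 26.6% in tdT- libraries. Its share in every tdT- library thus lay below that in every tdT+ library.

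**Figure D1:**
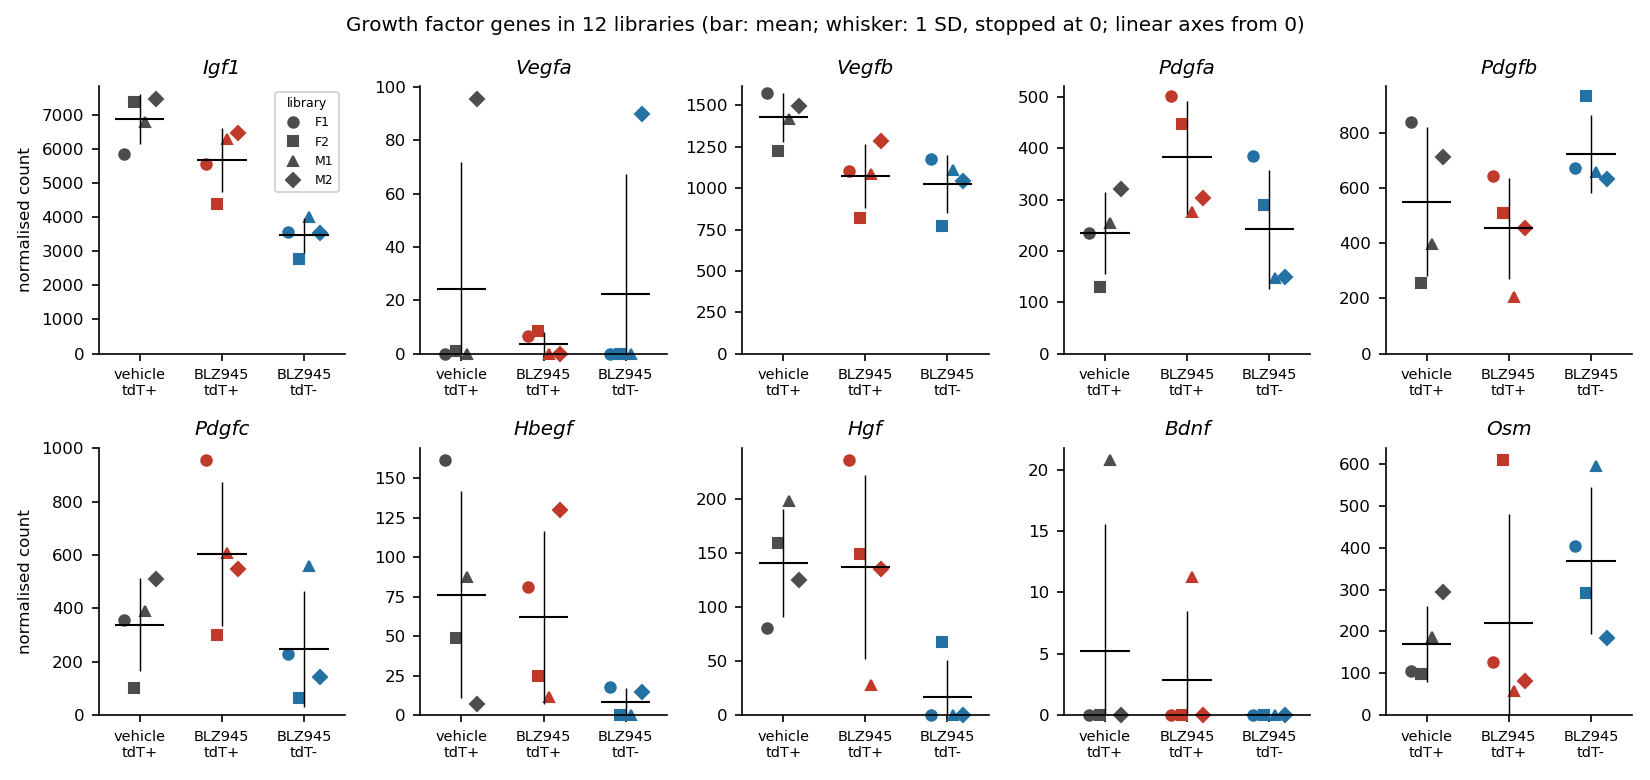
Normalised counts (linear axes from 0) of the 10 growth factor genes in the 12 libraries, by group; symbols give the mouse label, horizontal bars the mean of 4 and whiskers 1 SD. Igf1 in tdT- cells (2776 to 3991) lies below both tdT+ groups, while Vegfa and Bdnf are at 0 in most libraries.

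Within the BLZ945-treated mice, setting tdT- against tdT+ cells addresses whether the cells without the label differ from those that kept it. Of the 10 members, 8 passed the filter on low counts, and 1 of them, Igf1, passed an adjusted p of 0.05 and was lower in tdT- cells. Over all genes tested, 6.54% passed, 2.94% with a higher and 3.61% with a lower level. No member passed the added threshold of a 2-fold change (a log2 fold change of 1), which 2.31% of all genes did. With so few members, the share of members called is not set apart from that background. The median unshrunken log2 fold change of the 8 members was -0.68, against 0.004 over all genes. The median shrunken value was -0.1, against 0.001. The members were chosen with earlier results known, and Hbegf and Hgf passed the filter mainly through their tdT+ libraries. No shift of the set is therefore drawn from these medians. Each member is described with its values in every library.

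Igf1, which supports neurons and glia and is made by many tissue macrophages, was the member with the most counts. Its normalised counts in BLZ945 tdT+ cells were 5554 in F1, 4393 in F2, 6285 in M1 and 6465 in M2. In tdT- cells of the same animals they were 3563, 2776, 3991 and 3520. No tdT- value reached the lowest tdT+ value, and the groups did not overlap, which held for 9.35% of all genes. The tdT- level was lower in 4 of 4 mice, at 0.642, 0.632, 0.635 and 0.544 of the tdT+ level (mean 0.613 ± 0.046, SD). The shrunken log2 fold change was -0.66 ± 0.16 (SE), with an adjusted p of 2.07e-04 by DESeq2 and 0.0169 by the quasi-likelihood test of edgeR, which called 2.75% of all genes. With the mouse as a replicate block, it was -0.68 with an adjusted p of 1.43e-06. Without the F2 tdT- library the fold change was -0.57 and was still called. The 5 microglia markers rose and Mrc1 fell in the same tdT- libraries. Of the 10 macrophage markers, 6 were called lower and 2 higher. The part of these shifts in the Igf1 difference was not tested.

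Across the 12 libraries, the genes whose log2 level followed Igf1 most closely were Mfsd11, a member of a transporter superfamily (Pearson r = 0.948), Egfl7, a secreted protein named for its EGF-like domains (r = 0.945), and Ccl24, an eosinophil-attracting chemokine (r = 0.942), among 9295 genes compared. These correlations describe 12 points that share the group structure, and carry no test. For Vegfb, the closest were Ly6e (r = 0.904), Gpx4 (r = 0.874) and Dcxr (r = 0.865).

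**Figure D2:**
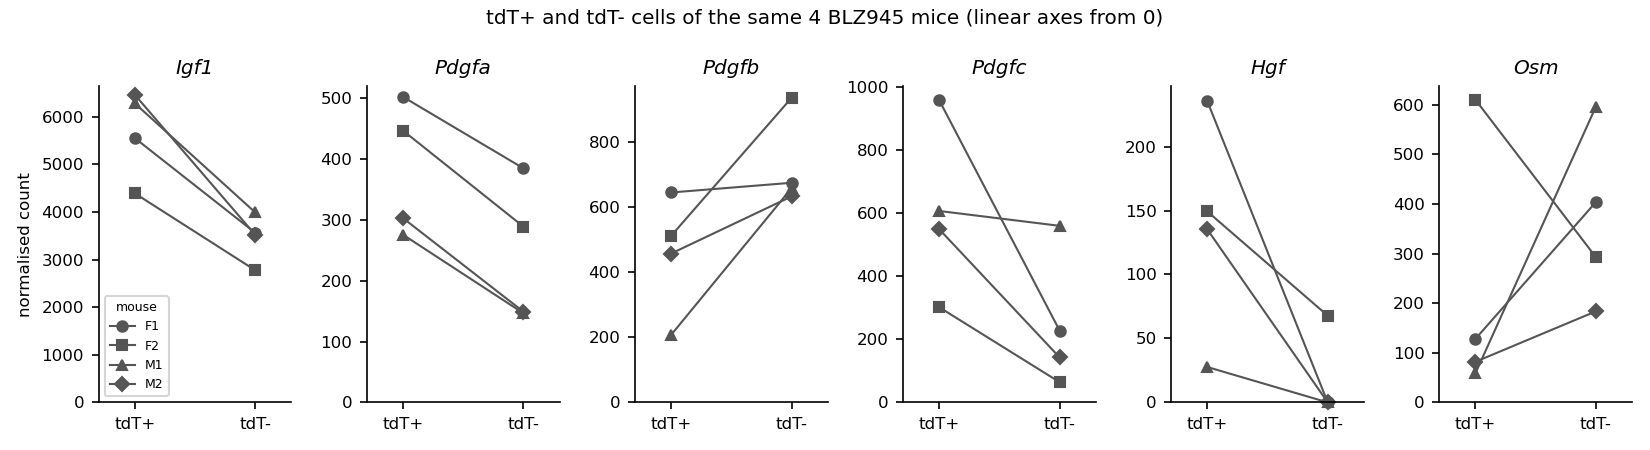
Normalised counts (linear axes from 0) of 6 growth factor genes in tdT+ and tdT- cells of the 4 BLZ945-treated mice; each line joins the 2 libraries of a mouse. Igf1, Pdgfa, Pdgfc and Hgf are lower in tdT- cells in 4 of 4 mice and Pdgfb is higher in 4 of 4, but of these only Igf1 passed the test without a block.

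The vascular factors did not pass the test. Vegfb stood at 1102, 819, 1087 and 1285 normalised counts in tdT+ cells of F1, F2, M1 and M2. In tdT- cells it stood at 1175, 773, 1111 and 1043. It was higher in 2 mice and lower in 2, and its unshrunken log2 fold change of -0.066 had a 95% interval from -0.47 to 0.34 (adjusted p = 0.964, DESeq2). The interval does not reach a change of 2-fold in either direction. Vegfa, the main driver of vessel growth, failed the filter. It had a count in 5 of 12 libraries, and stood at 95.5 in vehicle M2 and 89.9 in tdT- M2 and at no more than 8.29 in any other. A count of 0 in these libraries allows a level of up to about 3 normalised counts.

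Among the platelet-derived factors, all 4 mice moved the same way for each gene, but the sizes differed. Pdgfa, the ligand of the receptor Pdgfra on glial precursors, was at 502, 447, 276 and 303 normalised counts in tdT+ cells of F1, F2, M1 and M2. In tdT- cells it was at 385, 289, 147 and 149, that is, at 0.492 to 0.766 of the tdT+ level. The groups overlapped, since F1 and F2 were above M1 and M2 in both populations, and the adjusted p was 0.566 (0.311 with the replicate block, DESeq2). Pdgfb, a factor that recruits pericytes, was at 645, 511, 207 and 457 in tdT+ and at 675, 936, 658 and 633 in tdT- cells. It was higher in tdT- cells by 1.05-fold to 3.18-fold in 4 of 4 mice, with an adjusted p of 0.50 (DESeq2). Pdgfc, a factor that needs proteolytic release, was at 957, 301, 606 and 549 in tdT+ and at 227, 64.0, 559 and 143 in tdT- cells. M1 differed least, at 0.922 of its tdT+ level. The unshrunken log2 fold change of Pdgfc was -1.28 (95% interval -2.53 to -0.031) with an adjusted p of 0.289. With the mouse as a replicate block it was called (shrunken log2 fold change -1.19, adjusted p = 0.0265, DESeq2), and it was also called without the M1 tdT- library (-1.62, adjusted p = 0.014). By edgeR the adjusted p was 0.401.

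Hbegf and Hgf were low genes that were partly undetected in tdT- cells. Hbegf stood at 81.0, 24.9, 11.3 and 130 normalised counts in tdT+ cells of F1, F2, M1 and M2. In tdT- cells it stood at 17.7, 0, 0 and 14.3. It was lower in 4 of 4 mice, but the groups overlapped and the adjusted p was 0.242 (DESeq2). The unshrunken log2 fold change of Hbegf was -2.95, with a 95% interval from -5.67 to -0.22. Hgf stood at 236, 149, 27.7 and 135 in tdT+ cells and at 0, 67.8, 0 and 0 in tdT- cells. The only tdT- library with Hgf was F2, the library with neutrophil genes. The adjusted p of Hgf was 0.262 with all libraries and 7.9e-04 with the mouse as a replicate block. Without the F2 tdT- library, Hgf was called in tdT- cells, at 0 in all 3 remaining libraries. The mean Hgf level of all 4 BLZ945 tdT+ libraries was 44.8 times the floor of 3 counts in these 3 libraries. That floor covers counting error only, and the tdT+ library of M1, at 27.7, lay far nearer to it than the mean. The part of the F2 library's other cells in its Hgf reads was not tested.

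Osm and Bdnf showed no difference past the test. Osm was at 128, 610, 58.5 and 81.8 normalised counts in tdT+ cells of F1, F2, M1 and M2, and at 404, 293, 596 and 184 in tdT- cells. It was higher in tdT- cells in 3 mice and lower in F2, the mouse whose tdT+ library held the highest Osm count of all 12. With all libraries the adjusted p of Osm was 0.760 (DESeq2). Without the F2 tdT+ library it was called, at a shrunken log2 fold change of 1.62 (adjusted p = 0.0149). Bdnf was detected in only 2 libraries, vehicle M1 (20.8) and BLZ945 tdT+ M1 (11.3), and failed the filter. No fold change is given for it.

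The comparison of tdT+ cells after BLZ945 with those after vehicle addresses whether labelled cells differ 8 weeks after the inhibitor from those of mice that never received it. None of the 8 members passed the test in DESeq2 or in edgeR, where 0.961% (0.484% higher, 0.477% lower) and 0.0656% of all genes did. None passed the 2-fold threshold either, against 0.169% of all genes, and none had groups without overlap, against 6.72%. At an unadjusted p under 0.05, 1 member passed in each tool, Vegfb. Of the 13724 genes past the filter, 1109 did in DESeq2 and 954 in edgeR, so 1 of 8 is not set apart from that background. Igf1 was at 5857, 7368, 6778 and 7451 normalised counts in vehicle cells of F1, F2, M1 and M2, which are other animals than the BLZ945 mice of the same labels. The BLZ945 values, given above, overlapped them, and the unshrunken log2 fold change was -0.27 with a 95% interval from -0.58 to 0.029 (adjusted p = 0.738). Vegfb was at 1573, 1225, 1417 and 1497 in vehicle cells, with an unshrunken log2 fold change of -0.41 (95% interval -0.82 to -0.008, adjusted p = 0.593). Intervals of the other 6 members were wide. Pdgfa and Pdgfc had fold changes of 0.70 (interval -0.19 to 1.59) and 0.83 (interval -0.42 to 2.08) on the log2 scale. That of Hgf ran from -2.87 to 2.79, the widest together with Hbegf.

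tdT- cells were also set against vehicle tdT+ cells. This comparison shares its tdT- libraries with the first and its vehicle libraries with the second, so it is no independent repeat of either. Again 1 of 8 members passed, Igf1, where 6.81% of all genes did, 3.29% with a higher and 3.51% with a lower level. Igf1 averaged 3463 ± 504 in tdT- and 6864 ± 735 in vehicle cells (SD, n = 4), and the groups did not overlap, as for 9.7% of all genes. The shrunken log2 fold change was -0.94 ± 0.16 (SE), with an adjusted p of 2.33e-08 by DESeq2 and 0.00188 by edgeR, which called 3.25% of all genes. It fell short of the 2-fold threshold, which 2.57% of all genes passed. Without the F2 tdT- library the value was -0.86 and was still called. Vegfb did not overlap between the groups either (773 to 1175 against 1225 to 1573), but its adjusted p was 0.177. Hgf was at 80.2, 159, 198 and 124 in vehicle cells, above all 4 tdT- values, with an adjusted p of 0.251. It was called with the letter of the mouse label as a covariate and without the F2 tdT- library. In the latter case, the mean of the 4 vehicle libraries was 46.0 times the floor of 3 counts, which covers counting error only. Hbegf ranged from 7.21 to 161 in vehicle cells and overlapped the tdT- values. Osm (99.0 to 294 in vehicle cells), Pdgfa (129 to 320), Pdgfb (257 to 842) and Pdgfc (100 to 512) overlapped as well and did not pass.

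**Figure D3:**
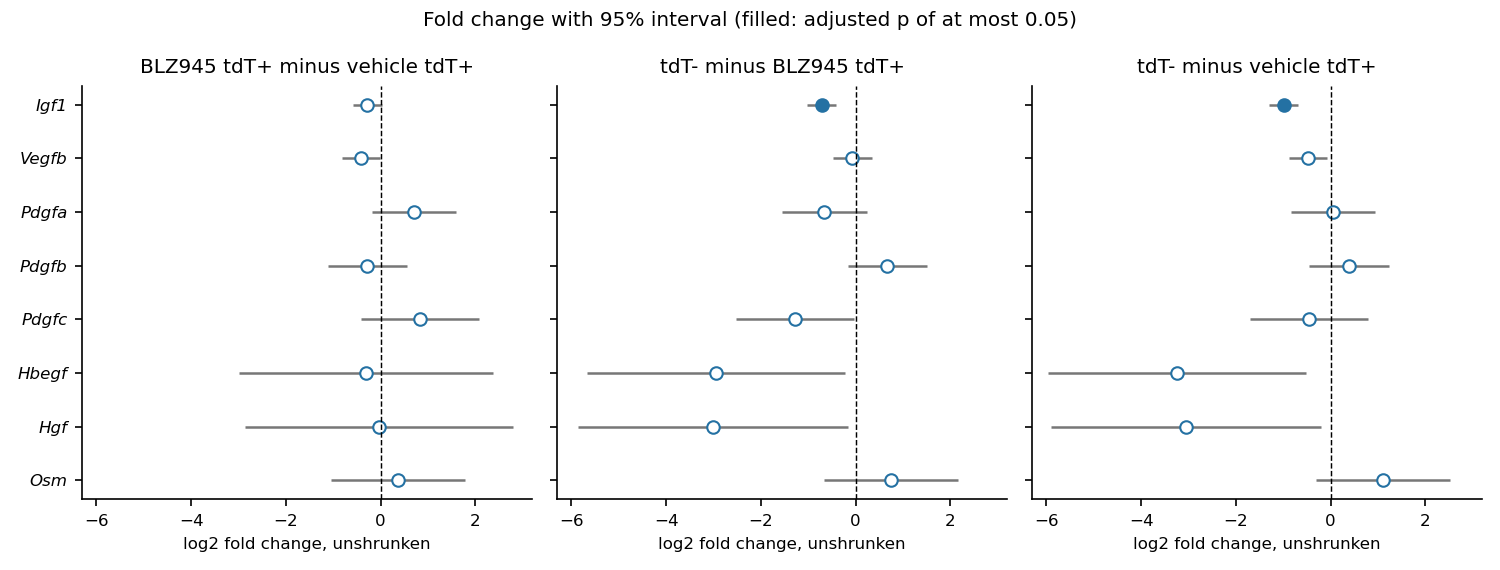
Unshrunken log2 fold change (x axis) of the 8 growth factor genes that passed the filter in the 3 comparisons, with 95% intervals; filled points had an adjusted p of at most 0.05. Igf1 is the only filled point, in both comparisons with tdT- cells (-0.71 and -0.99), and the intervals of Hbegf and Hgf are the widest.

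The spread between libraries was larger than counting error for every member that passed the filter. For Igf1, the coefficient of variation over 4 libraries was 10.7%, 16.6% and 14.6% in vehicle tdT+, BLZ945 tdT+ and tdT- cells, where counting alone gives 1.17%, 1.32% and 1.70%. For Pdgfc it was 51.0%, 44.8% and 87.7%, against at most 6.44% from counting. Osm in BLZ945 tdT+ cells varied by 119%, against 6.54%. The Igf1 value of -0.71 in tdT- against BLZ945 tdT+ cells lay inside the 95% intervals of Pdgfa, Pdgfc, Hbegf and Hgf in that comparison. The difference between tdT- and BLZ945 tdT+ cells was also compared between mice labelled F and M. No member passed that interaction test in edgeR or DESeq2. In edgeR, 0 of 13724 genes passed and 836 had an unadjusted p under 0.05, and in DESeq2 396 genes passed.

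Receptors of the 10 factors were measured in the same cells. Of 23 receptor genes, 12 passed the filter, and in tdT- against BLZ945 tdT+ cells 4 fell and 0 rose. Over all genes tested, 3.61% fell and 2.94% rose. The median log2 fold change of the receptors was -0.54 unshrunken and -0.14 shrunken. The list was chosen with earlier results known, so no shift of the set is drawn from these values. Nrp1, the neuropilin that binds vascular factors and the most abundant receptor of the list, averaged 259 ± 23 TPM in BLZ945 tdT+ and 166 ± 28.1 TPM in tdT- cells. Its shrunken log2 fold change was -0.48 ± 0.11 (adjusted p = 1.49e-04, DESeq2), and edgeR gave an adjusted p of 0.0196. Lifr, a partner of Il6st for Osm and related cytokines, fell by 0.64 on the log2 scale (adjusted p = 0.012), but edgeR gave 0.0744. Egfr and Erbb3, receptors of the family that Hbegf binds, had the largest fold changes of the list. Egfr was at 950, 956, 1070 and 886 normalised counts in tdT+ cells of F1, F2, M1 and M2, and at 14.6, 141, 227 and 0 in tdT- cells. Its shrunken log2 fold change was -2.78 ± 0.995 (adjusted p = 0.00439, DESeq2), with an adjusted p of 0.101 by edgeR. Erbb3 was at 595, 244, 108 and 265 in tdT+ cells and at 0, 11.3, 0 and 0 in tdT- cells (adjusted p = 2.06e-07 by DESeq2 and 0.0237 by edgeR). Erbb3 passed the filter mainly through its tdT+ libraries. Its tdT- level lay near the floor, so the size of its fold change is not resolved. Neither receptor overlapped between the populations, as for 9.35% of all genes, and both were lower in tdT- cells in 4 of 4 mice.

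**Figure D4:**
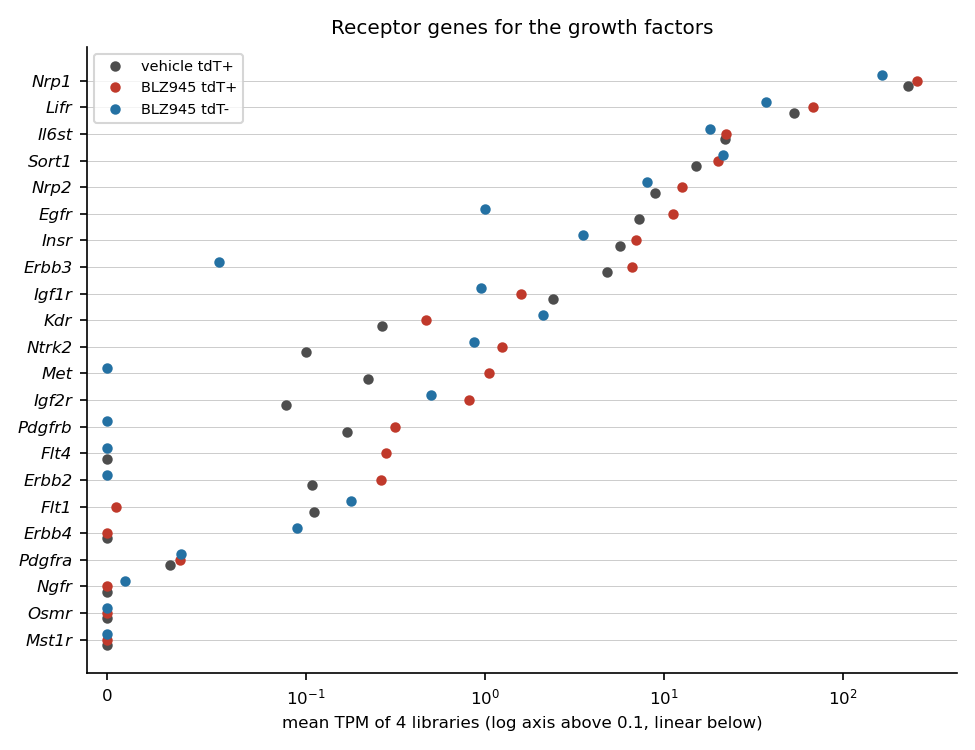
Mean level in TPM (x axis, logarithmic above 0.1 and linear below) of receptor genes for the growth factors, in the 3 groups of 4 libraries. Nrp1 and Lifr have the highest levels, Egfr and Erbb3 are lower in tdT- cells, and Osmr and Mst1r are at 0 in all groups.

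None of the other receptors was called in tdT- against BLZ945 tdT+ cells. Igf1r, the receptor of Igf1, averaged 2.40 ± 1.32, 1.59 ± 0.579 and 0.953 ± 0.971 TPM in vehicle tdT+, BLZ945 tdT+ and tdT- cells, and was not called in any comparison. Il6st averaged 18.2 to 22.3 TPM over the groups. Osmr was at 0 in all 12 libraries. In tdT- against BLZ945 tdT+ cells, Kdr was higher in 4 of 4 mice (means 159 against 31.4 normalised counts, adjusted p = 0.729, DESeq2). Insr was lower in 4 of 4 (403 against 727, adjusted p = 0.308, DESeq2). Flt1, Pdgfra and Pdgfrb failed the filter. Met failed the filter, and was at 0 in all tdT- libraries but also in 3 of 4 vehicle and 2 of 4 BLZ945 tdT+ libraries. Against vehicle cells, tdT- cells had lower Erbb3 (shrunken log2 fold change -5.85), Egfr (-1.92) and Nrp1 (-0.34) and higher Ntrk2 (2.59), so that 3 of 12 fell and 1 rose. Over all genes, 3.51% fell and 3.29% rose. By edgeR, the adjusted p of Nrp1, Egfr and Ntrk2 in this comparison was 0.0799, 0.175 and 0.127, and that of Erbb3 was 0.0294. The calls of Egfr, Nrp1 and Ntrk2 were lost in 10, 6 and 4 of 19 alternatives, that of Erbb3 in 0. Log2 fold changes there ran from -3.06 to -0.16 for Egfr and from 0.26 to 3.21 for Ntrk2. Ntrk2 was at 400, 90.4, 36.9 and 20.1 normalised counts in tdT- cells of F1, F2, M1 and M2, which overlapped vehicle cells (3.61 to 23.4). Ntrk2, the Bdnf receptor, was also called in BLZ945 tdT+ against vehicle cells, at 183 ± 73.2 against 14.7 ± 8.37 normalised counts (shrunken log2 fold change 3.10, adjusted p = 0.0101 by DESeq2 and 0.361 by edgeR). It was the only receptor called in that comparison, where 0.961% of all genes were called, and its call was lost in 3 of 19 alternatives.

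Among 13 genes for carriers of insulin-like growth factors and their proteases, 6 passed the filter and Igfbp4, which holds Igf1 away from its receptor, fell in tdT- cells. Its normalised counts were 12791, 15787, 19303 and 16535 in tdT+ cells of F1, F2, M1 and M2, and 10400, 7562, 7863 and 9463 in tdT- cells. The groups did not overlap, as for 9.35% of all genes, and each mouse had less in tdT- cells, at 0.407 to 0.813 of the tdT+ level. The shrunken log2 fold change was -0.83 ± 0.14 (adjusted p = 7e-08 by DESeq2, 0.0033 by edgeR), and against vehicle cells it was -1.07 (adjusted p = 8.17e-13 by DESeq2, 5.68e-04 by edgeR). Igf1 and its carrier Igfbp4 were thus both lower in tdT- cells. No other gene of the carrier list was called in tdT- against BLZ945 tdT+ cells, where 3.61% of all genes fell and 2.94% rose. The same change in microglia markers stood beside Igfbp4, and its part was not tested.

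Of 19 genes for the release and activation of growth factors, 15 passed the filter, and 2 rose and 2 fell in tdT- against BLZ945 tdT+ cells. Over all genes, 2.94% rose and 3.61% fell. Cd9, a tetraspanin that associates with the membrane form of Hbegf, stood at 3904, 5141, 3312 and 3458 normalised counts in tdT+ and at 15974, 17699, 30550 and 22853 in tdT- cells. Its shrunken log2 fold change was 2.42 ± 0.23 (adjusted p = 9.17e-24 by DESeq2, 2.43e-04 by edgeR). Spint1, an inhibitor of the proteases that activate Hgf, was 4.01-fold to 8.76-fold higher in tdT- cells of the 4 mice (shrunken log2 fold change 2.12, adjusted p = 0.00607 by DESeq2 and 0.098 by edgeR). Rhbdf2, which carries the sheddase Adam17 to the surface, fell by 1.08 (adjusted p = 0.00859 by DESeq2 and 0.0612 by edgeR), and Adam9, a membrane protease, fell by 0.83 (adjusted p = 1.53e-06 and 0.00427). The sheddases Adam10 and Adam17 were not called. Their means in normalised counts were 5552 and 5039 in tdT- cells and 5084 and 4721 in BLZ945 tdT+ cells. Against vehicle cells these 4 genes were called as well, with shrunken log2 fold changes of 3.05 for Cd9, 4.11 for Spint1, -0.96 for Rhbdf2 and -0.51 for Adam9. Over all genes, 6.81% were called there. By edgeR, the adjusted p in this comparison was 3.15e-05 for Cd9, 0.00857 for Spint1, 0.0454 for Adam9 and 0.0758 for Rhbdf2. The groups of Rhbdf2 overlapped there, and its call was lost in 8 of 19 alternatives: by edgeR, with only the 8 libraries compared, with the mouse as a replicate block (adjusted p = 0.111), and without the F1, F2 or M1 vehicle library or the F2 or M1 tdT- library (adjusted p of up to 0.126). Against BLZ945 tdT+ cells it was lost by edgeR and without the F1 tdT+ library, with an adjusted p of up to 0.0612. The call of Adam9 against vehicle cells was lost in 1 of 19, without the M1 vehicle library (adjusted p = 0.0626), and those of Cd9 and Spint1 in none of the 19. None of the 15 was called in BLZ945 tdT+ against vehicle cells. Cd9 is also expressed by microglia, whose markers rose in the same libraries, and their part in its level was not tested.

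Genes of the hypoxia response, the pathway that induces Vegfa, showed few calls. Of 19, 18 passed the filter, and Vhl, which marks the hypoxia factors for degradation, was the only one called in tdT- against BLZ945 tdT+ cells (shrunken log2 fold change 0.82, adjusted p = 0.0285 by DESeq2 and 0.118 by edgeR, groups overlapping). Over all genes, 6.54% were called in that comparison, 6.81% in tdT- against vehicle cells and 0.961% in BLZ945 tdT+ against vehicle cells. With the mouse as a replicate block Vhl was not called (adjusted p = 0.0913). Against vehicle cells, Vhl (0.99) and the glucose transporter Slc2a1 (0.81) were higher in tdT- cells, with adjusted p of 0.0693 and 0.103 by edgeR. Ero1a, an oxidase of the endoplasmic reticulum, was higher in BLZ945 tdT+ than in vehicle cells (784 ± 67.0 against 461 ± 45.9, adjusted p = 0.0305 by DESeq2 and 0.343 by edgeR). Of 28 other growth factor genes, 8 passed the filter and none was called in tdT- against BLZ945 tdT+ cells. Ptn (pleiotrophin) was the only one called in BLZ945 tdT+ against vehicle cells, at 660 ± 296 against 210 ± 115 normalised counts (adjusted p = 0.0285 by DESeq2 and 0.317 by edgeR). Grn (progranulin) exceeded every member, at 1705 to 3060 TPM over the 12 libraries, and was not called.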

How the data were processed

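Bulk RNA-seq was analysed from 12 libraries of FACS-sorted CD206+ sdCAMs in 3 groups of 4. The deposited table holds raw read counts for each gene symbol. Per the file headers, the authors obtained them with featureCounts 2.0.6 over exons of a filtered GENCODE M33 annotation (GRCm39), without strand and without multi-mapping reads. The submitters' processing notes name bcl2fastq 2.20, STAR 2.7.11a and DESeq2 1.46.0. Libraries came from sub-nanogram RNA with PCR-amplified cDNA (SMART-Seq), so counting intervals and floors cover counting error only. The deposited gene lengths, in bases of merged exons, were used for TPM. All 12 count columns were assigned by their library name and 0 were left over. A vehicle column numbered as the M2 library is named M1 and was taken as M2, which touches only the pairing of labels.

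Following the study's methods, a gene was dropped if 9 of the 12 libraries (75%) or more had under 10 counts of it, which left 13724. Differential expression was tested in R 4.3.3 with DESeq2 1.42.0 (Wald test, two-sided, on all 12 libraries with group as the term and size factors by median of ratios) with Benjamini-Hochberg adjustment over all genes. Fold changes were shrunken with apeglm 1.24.0, and since shrinkage draws noisy genes towards 0, unshrunken values with 95% intervals are also given. A gene was called at an adjusted p of at most 0.05. Normalised counts are counts divided by size factors. The scripts were tested on simulated data with known changes, where DESeq2 recovered more of the changed genes than edgeR but also made many more false calls, so the adjusted p of edgeR is given beside the calls of Igf1 and of the named genes of the other pathway lists. Replicate libraries were separate samples, with a chi-square per degree of freedom of 47.6 to 159 over 18 pairs.

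The members and gene lists were chosen with earlier results of these data known. All 10 members are named. From each other list, the called genes averaging 100 normalised counts or more were ranked by shrunken fold change and up to 4 per comparison are named, and receptors are named with their levels. For Igf1 and Vegfb, the 3 genes with the highest Pearson r of log2(normalised count + 1) are named among genes with a mean of at least 100. Grn, Adam10, Adam17, Il6st, Kdr and Insr were added after their values were seen. One receptor of the list is not reported here.

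The tdT+ and tdT- libraries of a BLZ945 mouse come from the same animal by their labels. Deviations of such pairs from their group means correlated across genes with r between -0.0046 and 0.0352. Alternatives were a fit blocked by mouse, edgeR 4.0.16 (quasi-likelihood, TMM), TMM factors in DESeq2, no filter, the 2-fold threshold, unshrunken values, the 8 libraries of a comparison alone, the F or M letter as a covariate, each library left out, and CPM, without division by length. Promoter stretches were matched by symbol in a RefSeq table of GRCm38.p6 for 7 of the 10 members, and Osm, Pdgfb and Hbegf had no entry used here.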

Additional observations from a re-analysis of the deposited data

Results flagged for a closer look

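In groups of 4 libraries, the highest or lowest library stood far from the other 3 (a gap, as a share of the range, above Dixon's 95% critical value) in 15 of 65 groups of members and marker sums. The rate of 1 in 20 behind that value assumes normal and independent values. Groups with 0 in 3 libraries pass by construction, and several flagged groups share the tdT- F2 library. The count of 15 is therefore not compared with that rate. Among the members, Vegfa stood at 95.5 normalised counts in vehicle M2 (others at most 0.99) and at 89.9 in tdT- M2 (others 0). Bdnf stood at 20.8 in vehicle M1 and at 11.3 in BLZ945 tdT+ M1, with 0 in the others. Hgf stood at 67.8 and Pdgfb at 936 in tdT- F2, where the other tdT- libraries had 0 and 633 to 675. Osm stood at 610 in BLZ945 tdT+ F2, against 58.5 to 128.

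Among summed markers, tdT- F2 was apart for neutrophil (422700), monocyte (50749), red blood cell (36171) and endothelial genes (60.3), and BLZ945 tdT+ F2 for neutrophil genes (39.6, against 0.92 to 4.2). Vehicle M2 was low for macrophage (448910) and microglia (44600) genes. The T and B cell sum was 204 in tdT- F1, against 0 to 8.47 in the others. The part of these cells in the members' values was not tested.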

How the results depend on the processing

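Igf1 kept its direction and its call in tdT- against BLZ945 tdT+ and against vehicle cells under all 19 alternatives tried for its fold change in each, with values from -0.77 to -0.57 and from -1.02 to -0.86 on the log2 scale and adjusted p of up to 0.0169 and 0.00188. The number of members called was 1 in both comparisons. In tdT- against BLZ945 tdT+ cells it was 3 with the mouse as a replicate block (Pdgfc and Hgf joined Igf1), 0 at the 2-fold threshold, and 1 to 2 with a library left out (Osm joined without BLZ945 tdT+ F2, Hgf without tdT- F2 and Pdgfc without tdT- M1). In tdT- against vehicle cells it was 2 with the replicate block (Hgf, shrunken log2 fold change -0.11, adjusted p = 3.57e-04), 2 with the letter F or M as a covariate, 0 at the 2-fold threshold, and 1 to 2 with a library left out (Hgf joined without tdT- F2). These vehicle mice share only a label with the BLZ945 mice, and same-labelled libraries correlated at r between -0.018 and 0.021. In BLZ945 tdT+ against vehicle cells it was 0 throughout. For no member was the difference between tdT- and BLZ945 tdT+ cells called unlike between F and M mice in any of the 3 tests run. These tests set only F1 and F2 against M1 and M2, and did not compare the levels of F and M mice. The replicate block changed no other member's call, and among the other named genes of tdT- against BLZ945 tdT+ cells it ended that of Vhl alone. By edgeR, the adjusted p of Pdgfc, Hgf and Osm in tdT- against BLZ945 tdT+ cells was 0.401, 0.465 and 0.813.

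Fold changes of members near 0 changed sign in 8 of 456 alternative fits, none of them called. For Vegfb in tdT- against BLZ945 tdT+ cells, values ranged from -0.12 to 0.03 when a library was left out. For Osm in BLZ945 tdT+ against vehicle cells, the replicate block gave -0.01, and leaving out a library gave -0.04 to 0.02. For Pdgfa in tdT- against vehicle cells, the letter covariate gave -0.03, and leaving out a library gave -0.09 to 0.07. Among 456 fits of other named genes, 73 lost the call and 0 changed sign, and the cause was not tested. By CPM, without division by length, the order of Igf1 and Vegfb in vehicle cells is turned, and Pdgfc moves from rank 6 to 4 and Osm from 4 to 6. Genes near 0, such as Vegfa, Bdnf and Hgf in tdT- cells, are limited by depth: a count of 0 allows up to 2.60 to 3.16 normalised counts.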
